A study of Mus musculus with 4 samples.

Results

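Integrins, laminins and the other core proteins of the basement membrane were examined in hearts of mouse embryos at embryonic day 9.5. The 40 genes were all those in the array's gene table named as integrin alpha or beta subunits, laminin chains or nidogens, together with perlecan (Hspg2), agrin (Agrn), dystroglycan (Dag1) and Sparc, out of 16675 genes tested. They comprised 24 integrin subunits and 16 matrix proteins or matrix receptors, each read on 1 probe, the one with the highest mean over the 4 arrays. The tested hearts were Salv CKO, which carry a conditional knockout of Salvador (Sav1), a scaffold protein of the Hippo kinase pathway. They were compared with hearts labelled wild-type. Both groups came from a C57bl/6 x129 hybrid strain, and each consisted of 2 pools of whole hearts, each pool on its own array labelled with Cy5. The pools are stated to be biological replicates, and the sources used here give neither the number of hearts per pool nor the Cre driver of the knockout.

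The basement membrane is a thin sheet of matrix under epithelia and endothelia and around muscle cells. Laminins, which are trimers of an alpha, a beta and a gamma chain, polymerise on the cell surface, type IV collagen forms a second network, and nidogens and perlecan connect the networks. Cells hold on to the sheet through dystroglycan and through integrins, dimers of an alpha and a beta subunit that bind matrix outside the cell and the actin cytoskeleton inside it. In the early heart tube this matrix lies around the myocardium and beneath the endocardium.

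On the arrays, deposited median intensities were 71.1 and 76.1 in the Salv CKO pools and 77.5 and 101 in the control pools. Sav1 had log2 intensities of 9.19 and 9.13 in the Salv CKO pools, against 9.56 and 9.30 in the control pools (difference -0.27 ± 0.13, limma adjusted p = 0.266). The sources used here do not say whether its probe lies in the deleted stretch, and its level is therefore no check of the genotypes. Of 14 heart muscle markers measured, 14 were above background on all 4 arrays. Values below are log2 intensities after quantile normalisation, differences are Salv CKO minus control with limma's standard error (SE), and adjusted p-values come from limma with Benjamini-Hochberg adjustment over all 16675 genes, with n = 2 pools per group throughout. A gene is called when its adjusted p is below 0.05, and is above background at an intensity over 16 (log2 of 4). Levels of different genes are read on different probes and are not set against each other.

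Of the 40 genes, 6 were called lower and 2 were called higher in Salv CKO hearts. Those called lower were the laminin chains Lama4 and Lamc1, the nidogen Nid1, dystroglycan (Dag1), the integrin beta1 subunit (Itgb1) and the platelet integrin Itga2b. Those called higher were the collagen receptor subunit Itga11 and perlecan (Hspg2), and perlecan was called the other way on both of its remaining probes. The called differences were moderate, from -0.91 to 0.81. Thus 15% of the 40 genes were called lower, beside 5.70% of all genes tested, 5% were called higher, beside 4.92%, and 20% were called in either direction, beside 10.6%. The median difference was -0.24 over the 40 genes and -0.04 over all genes. No call remained with any 1 of the 4 pools left out. The median difference of the 40 genes was then -0.29 to -0.20, beside -0.04 to -0.03 over all genes above background. Limma also called 0 of the 40 without the intensity trend, and 1 lower and 0 higher with intensities floored at 16. Of all 16675 genes, 0 were called without the trend, and 228 were called lower and 253 higher with that floor. With the values as deposited, 8 of the 40 were called lower and 0 higher. Of all 16675 genes, 3096 were called lower and 229 higher in that setting. In pooled whole hearts, fewer cells of a type and less RNA per cell cannot be told apart.

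**Figure D1:**
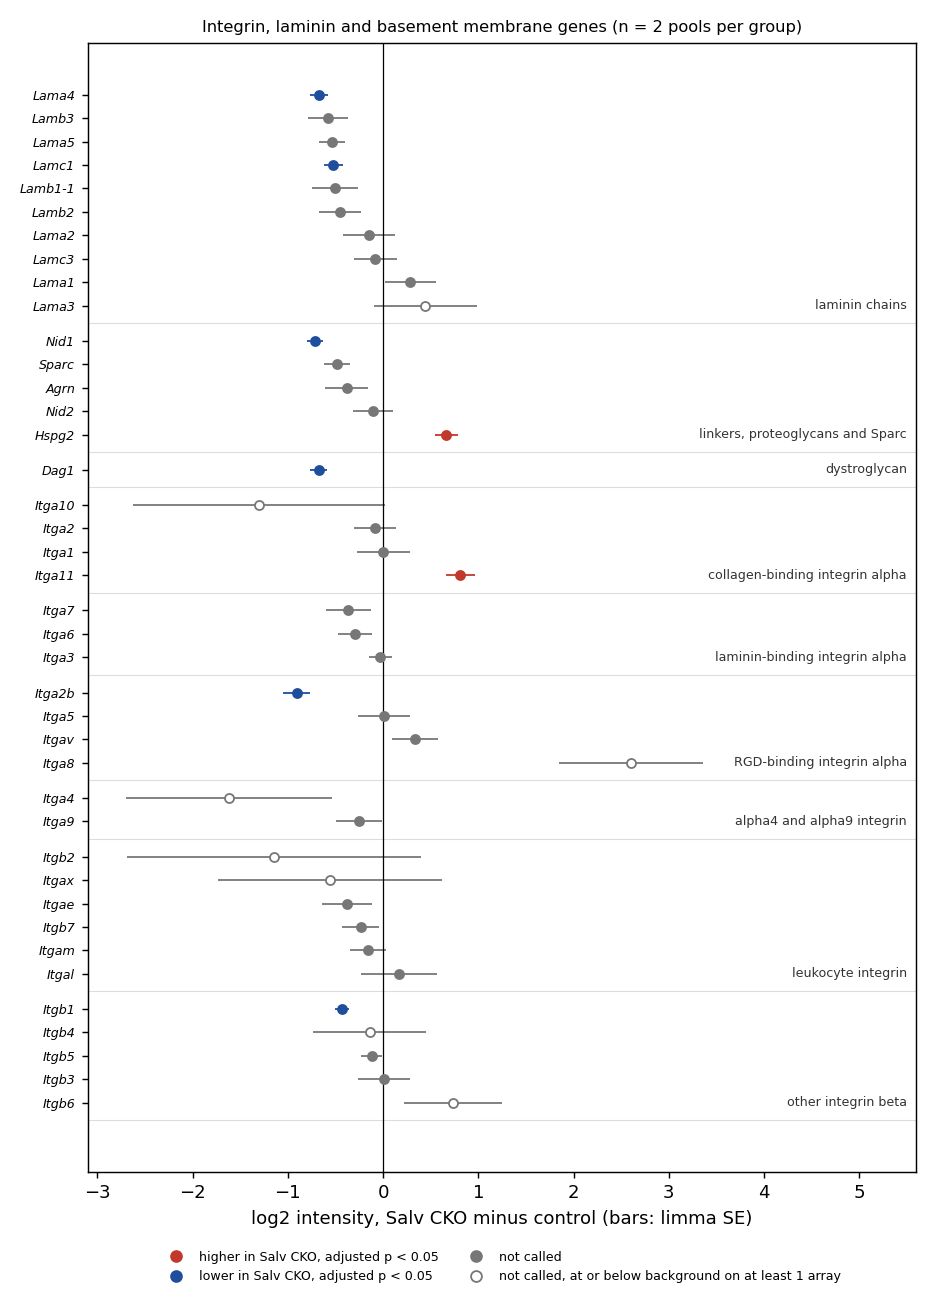
Difference in log2 intensity, Salv CKO minus control, for each of the 40 genes (horizontal axis, with limma SE as bars), ordered by role. Blue and red points are the 6 genes called lower and the 2 called higher, grey points were not called, and open points were at or below background on at least 1 array. Most laminin chains lie left of 0, and most integrin subunits lie near it.

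The promoters of 3 genes that fell are shown, because Itga2b had the largest called fall and because Nid1 and Itgb1 hold the letters bound by Tead factors, the DNA-binding partners through which the Hippo pathway acts on transcription. Each is the 250 bases upstream of the RefSeq start, 5′ to 3′ on the gene's strand, from RefSeq's annotation of GRCm38.p6, and capitals mark GGAATG.
Nid1, chr13:13437352-13437601, plus strand: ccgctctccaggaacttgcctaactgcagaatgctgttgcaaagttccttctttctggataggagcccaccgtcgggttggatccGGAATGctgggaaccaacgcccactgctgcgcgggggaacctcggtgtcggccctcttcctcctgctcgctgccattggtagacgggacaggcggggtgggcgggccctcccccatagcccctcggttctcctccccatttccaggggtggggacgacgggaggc
Itgb1, chr8:128685404-128685653, plus strand: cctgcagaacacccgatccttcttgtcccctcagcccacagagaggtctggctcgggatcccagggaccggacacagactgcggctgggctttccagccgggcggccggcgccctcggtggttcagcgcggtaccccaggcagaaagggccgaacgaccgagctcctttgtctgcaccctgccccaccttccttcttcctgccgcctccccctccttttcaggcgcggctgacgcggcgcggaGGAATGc
Itga2b, chr11:102469884-102470133, minus strand: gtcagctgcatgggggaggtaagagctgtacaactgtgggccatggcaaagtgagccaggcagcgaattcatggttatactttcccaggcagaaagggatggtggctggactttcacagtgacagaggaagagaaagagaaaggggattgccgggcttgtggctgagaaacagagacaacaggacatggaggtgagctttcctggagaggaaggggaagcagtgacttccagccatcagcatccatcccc

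RefSeq's promoter table matched 27 of the 40 genes, with 32 starts in all. The Tead letters GGAATG, searched on both strands, were in 4 of these 32 windows (12.5%), beside 12.6% of all 32851 promoters of the same length. They begin 165 bases upstream of the start in Nid1 and 7 bases upstream in Itgb1, and the other matches were in Itga10 and in the second start of Lamb3. The called genes Dag1, Hspg2, Itga11 and Itga2b held no GGAATG in their windows, and the called Lama4 and Lamc1 had no promoter entry. The GATA letters AGATAA, also searched on both strands and not overlapping the Tead letters, were in 1 of the 32 windows, that of Itgax (3.12%, beside 9.99% of all promoters). A match describes the letters of the window and is not shown to be a binding site.

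Among the laminin chains, 2 of 10 fell in Salv CKO hearts and 0 rose, beside 5.70% and 4.92% of all genes. Lama4, the alpha4 chain typical of endothelial and muscle basement membranes, had log2 intensities of 10.84 and 11.04 in the Salv CKO pools, against 11.57 and 11.65 in the control pools. Both Salv CKO pools lay below both control pools, and Lama4 fell by 0.67 on the log2 scale (SE 0.10, limma adjusted p = 0.0215), a level in control hearts 1.59-fold that in Salv CKO hearts. Lamc1, the gamma1 chain that most laminin trimers share, stood at 10.88 and 10.84 in the Salv CKO pools and at 11.27 and 11.49 in the control pools. The groups did not overlap, and the difference was -0.52 ± 0.10 (limma adjusted p = 0.0409).

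The remaining laminin chains were not called. The beta1 chain, listed as Lamb1-1 and the usual beta partner of Lamc1, read 7.63 and 8.12 in the Salv CKO pools, against 8.18 and 8.57 in the control pools. Its groups did not overlap, but the pools within each group lay nearly as far apart as the groups, and its difference of -0.50 ± 0.24 missed the threshold (limma adjusted p = 0.269). Lama5, the alpha chain of many mature epithelial and vascular basement membranes, was the uncalled chain nearest to the threshold, with 8.48 and 8.31 in the Salv CKO pools against 8.83 and 9.03 in the control pools (-0.54 ± 0.14, limma adjusted p = 0.0823). Lamb2 and Lamb3 had differences of -0.45 ± 0.22 and -0.57 ± 0.21, with pools that did not overlap (adjusted p = 0.287 and 0.168). Pools overlapped for Lama2, the main alpha chain of adult muscle (-0.15 ± 0.27), and for Lamc3 (-0.08 ± 0.22).

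Lama1, the alpha chain of the early embryo's laminin, was the exception in sign among the 9 laminin chains above background on all arrays. It read 7.81 and 8.47 in the Salv CKO pools and 7.71 and 7.99 in the control pools, with overlapping groups (0.29 ± 0.27, limma adjusted p = 0.559). Lama3, a chain of epithelial laminins, was above background in 1 of 2 Salv CKO pools and in 0 of 2 control pools. Over the 9 chains, the median difference was -0.50 after quantile normalisation, where the median of all genes above background was -0.04. With the values as deposited it was -0.88 where that of all genes was -0.44, so that the distance to all genes was -0.46 and -0.44 under the 2 scalings, and 8 of 9 chains lay below the median of all genes under each of 4 scalings.

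Of the proteins that connect the laminin and collagen networks, Nid1 had the lowest adjusted p of the 40 genes. Nid1, which binds the laminin gamma1 chain and type IV collagen, had log2 intensities of 10.28 in both of the Salv CKO pools and of 10.93 and 11.05 in the control pools. Pools of each group lay close together and the groups were apart, with a difference of -0.71 ± 0.08 (limma adjusted p = 0.0143). Its relative Nid2 showed overlapping pools, at 8.95 and 8.74 in Salv CKO hearts against 9.21 and 8.68 in control hearts (-0.10 ± 0.21, limma adjusted p = 0.807). The difference between the 2 nidogens was not tested.

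Sparc, a matrix protein that binds collagen, read 10.35 and 10.50 in the Salv CKO pools and 11.08 and 10.74 in the control pools (-0.48 ± 0.14, limma adjusted p = 0.102). Its groups did not overlap, but the control pools differed from each other by more than the Salv CKO pools did. The proteoglycan Agrn, a ligand of dystroglycan, gave -0.38 ± 0.23 on the probe used and -0.40 on its other probe, with no call (limma adjusted p = 0.368).

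Perlecan (Hspg2), the large heparan sulfate proteoglycan of basement membranes, had 3 probes that disagreed. On the probe used, mMR027191, it read 12.09 and 11.78 in the Salv CKO pools and 11.30 and 11.25 in the control pools, and the gene was called higher by 0.66 ± 0.12 (limma adjusted p = 0.0354). On probe mMC017656 the values were 9.58 and 9.66 in the Salv CKO pools against 10.69 and 10.65 in the control pools. On probe mMR028419 they were 10.71 and 10.87 in the Salv CKO pools against 12.23 and 11.84 in the control pools.

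Both of these other probes thus ran the opposite way, with no overlap between groups on any of the 3 probes. Their differences were -1.05 ± 0.08 and -1.25 ± 0.15 (limma adjusted p = 0.00812 and 0.0156 over all named probes), larger than the rise on the probe used. As the mean of its probes, Hspg2 was called lower (-0.54, adjusted p = 0.0327). The rise on the probe used was 0.15 (adjusted p = 0.515) with the values as deposited and 0.42 (adjusted p = 0.123) after median centring, while both other probes were called lower under each of the 4 scalings. The sources used here do not give the sequences or transcript positions of the probes, so no direction is given for perlecan as a gene. Among the 2139 genes with at least 2 probes above background on all arrays, 12 (0.561%) had probes called both ways.

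**Figure D2:**
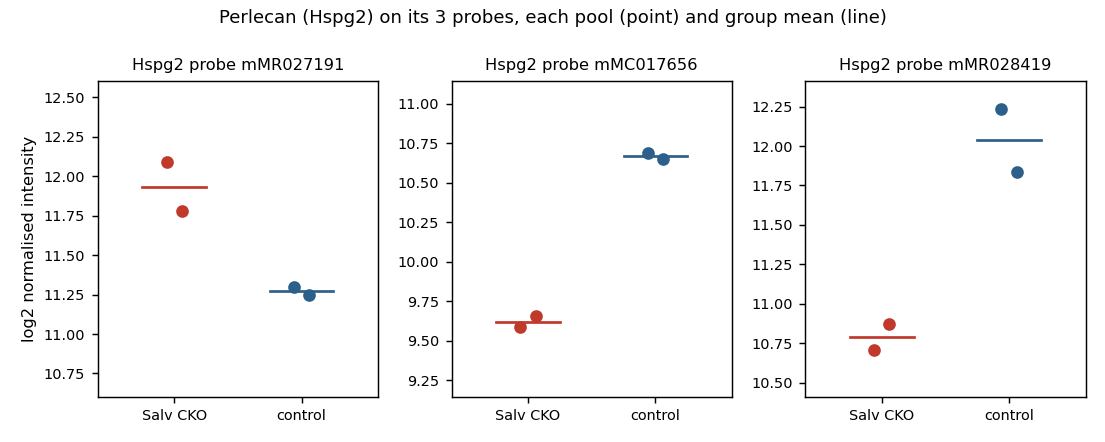
Log2 normalised intensity of perlecan (Hspg2) on its 3 probes, with a panel for each probe, Salv CKO pools in red on the left and control pools in blue on the right (points are pools, lines are group means of 2 pools). On probe mMR027191 the Salv CKO pools lie above the control pools, and on the other 2 probes they lie below them.

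Dystroglycan (Dag1), the laminin receptor that links the basement membrane to dystrophin, was lower in Salv CKO hearts, with log2 intensities of 9.18 and 9.16, against 9.85 and 9.84 in control hearts. Pools within a group were nearly equal, and the difference was -0.67 ± 0.09 (limma adjusted p = 0.0186). The other probe of Dag1 gave -0.56 with no call (adjusted p = 0.190 over all named probes), and the mean of both gave -0.62 (adjusted p = 0.0611).

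Itgb1, the beta subunit shared by the integrin receptors for laminin, collagen and fibronectin, had log2 intensities of 14.84 and 14.90 in the Salv CKO pools and of 15.24 and 15.37 in the control pools. The groups did not overlap, and Itgb1 fell by 0.43 on the log2 scale (SE 0.07, limma adjusted p = 0.0302), the smallest of the called differences. None of its laminin-binding alpha partners was called. Itga6 read 10.85 and 11.10 in the Salv CKO pools, against 11.04 and 11.49 in the control pools, with overlap (-0.29 ± 0.18, limma adjusted p = 0.383), and its other probe gave -0.42. Itga7, the laminin receptor subunit of muscle, was at 6.84 and 6.62 in Salv CKO hearts and at 7.27 and 6.92 in control hearts (-0.36 ± 0.24, limma adjusted p = 0.412), and Itga3 differed by -0.03 ± 0.12.

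Of the 4 collagen-binding alpha subunits, 1 rose and 0 fell, beside 4.92% and 5.70% of all genes. Itga11, a fibrillar collagen receptor subunit of mesenchymal cells, had log2 intensities of 8.51 and 8.32 in the Salv CKO pools and of 7.63 and 7.57 in the control pools. The groups did not overlap, and Itga11 was 1.76-fold higher in Salv CKO hearts (0.81 ± 0.15, limma adjusted p = 0.0373). Its other probe gave 0.31 with overlapping pools and no call (adjusted p = 0.619 over all named probes), and the mean of both gave 0.56 (adjusted p = 0.216). Itga1 and Itga2, the subunits of the classic collagen receptors, differed by 0.0014 ± 0.28 and -0.09 ± 0.22, and Itga10 was above background on no array.

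In the same pools, 8 of 8 listed markers of cushion mesenchyme were measured, all above background on every array, and 5 rose. The counts in this paragraph stand beside 4.92% of all genes that rose and 5.70% that fell. The summed intensity of the 8 was 17825 to 18160 in the Salv CKO pools and 11435 to 11877 in the control pools. Has2 and Tbx20 had overlapping pools and no call (0.06 ± 0.08 and 0.22 ± 0.20, limma adjusted p = 0.686 and 0.549). Prrx1 was higher without a call (0.44 ± 0.11, limma adjusted p = 0.0723). Of 10 somite and skeletal muscle markers, 3 rose and 0 fell, with summed intensities of 3968 to 3974 in Salv CKO hearts and 806 to 835 in control hearts, and Myf5 was above background on no array. Tcf15, a somite transcription factor, made up most of that sum, with intensities of 2999 to 3069 in the Salv CKO pools and 332 to 388 in the control pools. The other 9 markers summed to 905 to 968 in Salv CKO hearts and 447 to 473 in control hearts, and 1 of them, Pax9, was lower without a call (-1.02 ± 0.34, limma adjusted p = 0.135). The part of these cells in the value of Itga11 was not tested.

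Among the alpha subunits that recognise the RGD motif, Itga2b fell. This subunit of the platelet fibrinogen receptor, which also marks early blood progenitors, had log2 intensities of 7.91 and 7.89 in the Salv CKO pools and of 8.69 and 8.93 in the control pools. Both Salv CKO pools lay below both control pools, with a difference of -0.91 ± 0.14 (limma adjusted p = 0.0265), so that control hearts held 1.88-fold the level of Salv CKO hearts. Its beta partner Itgb3 read 6.37 and 6.10 in the Salv CKO pools, against 6.10 and 6.34 in the control pools, and showed no difference larger than its error (0.01 ± 0.27).

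Of 8 platelet and megakaryocyte markers measured, all above background on at least 1 array, 1 fell (platelet factor 4, listed as Cxcl4) and 0 rose. Their summed intensity was 984 to 991 in the Salv CKO pools and 1421 to 1731 in the control pools. Cxcl4 made up most of that gap (-1.07 ± 0.17, limma adjusted p = 0.0255). For 5 of the 8, both Salv CKO pools lay below both control pools, beside 29.0% of all genes. Ppbp ran the other way with pools apart and no call (0.57 ± 0.30, limma adjusted p = 0.311). Gp5 and Treml1 also had differences above 0, with overlapping pools. Of 7 red cell markers, 3 fell and 0 rose, and 5 had both Salv CKO pools below both control pools. Of all genes, 5.70% fell, 4.92% rose and 29.0% had pools apart in that direction. The haem synthesis enzyme Alas2 fell by 0.94 on the log2 scale (SE 0.07, limma adjusted p = 0.00717), the embryonic globin Hbb-y by 1.08 and the anion exchanger Slc4a1 by 0.62. Hba-x was saturated on 3 arrays (unscaled intensity of at least 65000), and without it the list summed to 48759 to 51284 in the Salv CKO pools and 72916 to 75727 in the control pools, with Epb4.2 above background on no array. The part of platelet-lineage and red cells in the value of Itga2b was not tested.

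The fibronectin receptor subunit Itga5 differed by 0.01 ± 0.27, and Itgav, the alpha partner of several beta subunits, had pools that did not overlap but no call (0.33 ± 0.24, limma adjusted p = 0.461). Itga8, a receptor subunit for nephronectin and fibronectin, read 5.48 and 6.26 in the Salv CKO pools, against 4.18 and 2.35 in the control pools. It was above background in 2 of 2 Salv CKO pools and in 1 of 2 control pools, and the spread between pools was wide (2.61 ± 0.76, limma adjusted p = 0.103). Its call depended on the setting: it was called higher with each array centred on its median (limma adjusted p = 0.0445), with only genes whose mean was above background (0.0437) and with a robust spread (0.0408). With intensities floored at 16 the difference was 1.78, with no call, and with a floor of 64 it was 0.13.

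Itga9, which pairs with the beta1 subunit, gave -0.25 ± 0.25 with overlapping pools, and Itga4, a receptor subunit for Vcam1 and fibronectin, was above background on no array. The beta subunit Itgb5 differed by -0.12 ± 0.11, with overlapping pools and -0.13 on its other probe. The epithelial subunits were near the background limit: Itgb4 was above it in 1 of 2 Salv CKO and 2 of 2 control pools, and Itgb6 in 2 of 2 Salv CKO and 1 of 2 control pools, and neither was called.

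None of the 6 leukocyte integrin subunits was called. Itgae, Itgal, Itgam and Itgb7 were above background on all arrays, with differences from -0.38 to 0.17, while Itgax was above background on no array and Itgb2 in 1 control pool only. Of 9 leukocyte and macrophage markers measured, 0 were called, and Ptprc, Emr1 and Tyrobp were above background on no array.

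**Figure D3:**
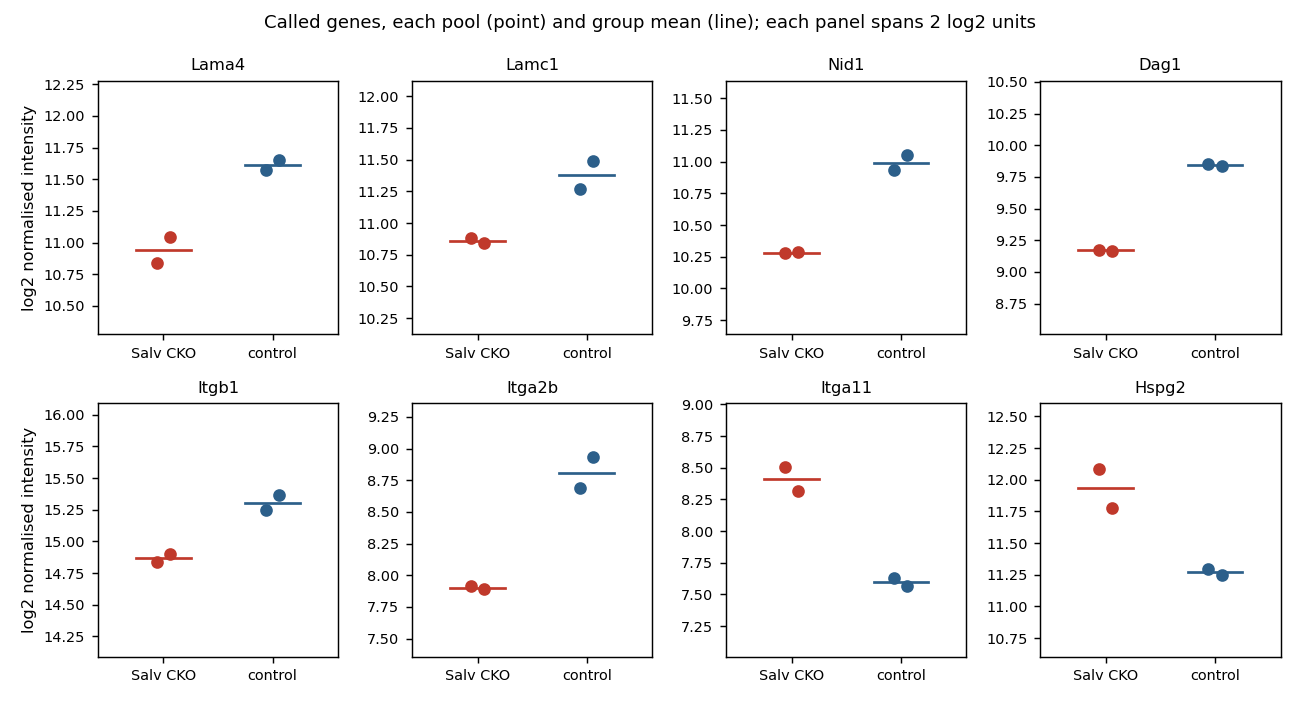
Log2 normalised intensity of the 8 called genes in each pool, with the Salv CKO pools in red on the left and the control pools in blue on the right (points are pools, lines are group means of 2 pools, and every panel spans 2 log2 units). Groups do not overlap in any panel, and the Salv CKO pools are higher only for Itga11 and for Hspg2 on the probe used.

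In all, the pools of the 2 groups did not overlap for 21 of the 40 genes (52.5%), beside 54.2% of all genes. They were lower in Salv CKO hearts for 15 and higher for 6, beside 29.0% and 25.2% of all genes, and these counts include genes at background. Of the 24 uncalled genes above background on all arrays, 18 had a difference below 0 and 6 above it. Within these 24, pools did not overlap for 9, of which 8 were lower, with differences of -0.57 to -0.36 and adjusted p of 0.0823 to 0.435. Overlapping pools were seen for the other 15, with differences of -0.29 to 0.29. The 7 genes with more than 1 probe gave the same sign on all their probes in 6 cases, Hspg2 being the exception.

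Markers of other cell types moved in the same pools as the basement membrane genes. The counts stand beside 5.70% of all genes that fell and 4.92% that rose. Of 11 endothelial and endocardial markers measured, all above background on every array, 5 fell and 0 rose, with a summed intensity of 18496 to 19217 in the Salv CKO pools and 29110 to 30655 in the control pools. Heart muscle markers gave 7 of 14 that fell and 0 that rose, with a median difference of -0.67. Of these 14 probes, 4 were saturated on at least 1 array, Actc1 and Myl4 on all 4 and Myh6 and Myl2 on 2 each. The other 10, of which 6 fell, summed to 103817 to 109371 in Salv CKO hearts and 126986 to 159005 in control hearts. Neural tube and crest markers rose in 7 of 14 cases and fell in 0, with sums of 54007 to 54227 in the Salv CKO pools and 15372 to 15515 in the control pools, and Foxd3 was above background on no array. Crabp1 made up most of these sums, with log2 intensities of 15.53 in both Salv CKO pools and of 13.72 and 13.70 in the control pools. The median difference of the 14 was 1.98. For endoderm and liver bud markers, 5 of 19 rose and 0 fell (23350 to 25782 in Salv CKO hearts, 18915 to 20349 in control hearts). Over all genes, both Salv CKO pools lay above both control pools for 25.2% and below them for 29.0%. In 13 of the 19 they lay above. In 3 they lay below, with no call: Amn (-0.60), Krt8 (-0.42) and Krt19 (-0.40), with limma adjusted p of 0.0562, 0.0631 and 0.132. Of 7 epicardial and proepicardial markers, 2 rose and 0 fell: the retinoic acid synthesis enzyme Aldh1a2 (1.61 ± 0.11, limma adjusted p = 0.00694) and Upk3b (0.58 ± 0.10, limma adjusted p = 0.0312). That list summed to 2280 to 2557 in the Salv CKO pools and 1319 to 1371 in the control pools, mostly from Aldh1a2 and Upk3b. Msln had both Salv CKO pools below both control pools, with no call (-0.22 ± 0.23, limma adjusted p = 0.594). Tbx18 was above background in 1 control pool only, and Wt1, Tcf21 and Upk1b on no array. The part of these cell types, and that of the red cells given beside Itga2b, in the values of the laminins, Nid1, Dag1 and Itgb1 was not tested.

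Type IV collagen, the other network of the basement membrane, was lower in the Salv CKO pools on its 2 main chains. Col4a1 read 12.42 and 12.66 in the Salv CKO pools and 13.60 and 13.65 in the control pools (-1.08 ± 0.10, limma adjusted p = 0.00985). Col4a2 stood at 14.20 and 14.32 in Salv CKO hearts, against 15.04 and 15.25 in control hearts (-0.89 ± 0.10, limma adjusted p = 0.0124). Among 17 further basement membrane genes measured, these 2 fell and 2 rose, the calcium-binding matrix proteins Smoc1 (1.83 ± 0.09, limma adjusted p = 0.00640) and Smoc2 (1.08 ± 0.09, limma adjusted p = 0.00822). Of all genes, 5.70% fell and 4.92% rose. The median of the 17 was 0.24. Over the 13 of them above background it was also 0.24, where all genes above background lay at -0.04. It was -0.0032 after median centring, where all genes lay at -0.17, and -0.27 on the unscaled deposited values, where they lay at -0.44. The distance to all genes was thus 0.28, 0.17 and 0.17 under these scalings.

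The median over 26 cytoplasmic integrin adaptors and signalling proteins was -0.33. Of these 26, 6 fell and 0 rose, beside 5.70% and 4.92% of all genes. They were Tgfb1i1, a focal adhesion adaptor (-1.08 ± 0.17, limma adjusted p = 0.0241), Parva, a partner of integrin-linked kinase (-0.89 ± 0.07, limma adjusted p = 0.00803), and the integrin activator Tln1 (-0.75 ± 0.13, limma adjusted p = 0.0308), followed by Zyx, Fermt2 and Bcar1. Integrin-linked kinase (Ilk) itself was not called (-0.27 ± 0.08, limma adjusted p = 0.107), nor was focal adhesion kinase (Ptk2, -0.04 ± 0.16). Measured against the median of all genes above background, 18 of the 23 listed genes above background lay below it under each of 4 scalings.

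Of 19 integrin ligands measured, 7 fell and 2 rose, beside 5.70% and 4.92% of all genes, with a median of -0.36. The list holds interstitial matrix proteins and also cell-surface ligands, with Vcam1 and Icam2 among the 7 that fell. Mfge8, an RGD protein bound by alpha-v integrins, fell by 0.87 on the log2 scale (SE 0.13, limma adjusted p = 0.0210), and Vcan and Vcam1 had differences of -0.76 and -0.72. Fibronectin (Fn1), the ligand of Itga5 and Itga8, read 6.62 and 6.44 in the Salv CKO pools and 7.91 and 7.32 in the control pools, with no call (-1.09 ± 0.27, limma adjusted p = 0.0736). Those that rose were Postn, a matrix protein of cushion mesenchyme (2.87 ± 0.36, limma adjusted p = 0.0162), and vitronectin (Vtn), a ligand of alpha-v integrins (1.05 ± 0.10, limma adjusted p = 0.00985).

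Around dystroglycan, 4 of 15 genes of the dystrophin complex and of dystroglycan glycosylation fell and 1 rose (median -0.18). Of all genes, 5.70% fell and 4.92% rose. The sarcoglycan Sgca fell by 1.30 on the log2 scale (SE 0.13, limma adjusted p = 0.0109), caveolin-3 (Cav3) by 1.07 (SE 0.19, limma adjusted p = 0.0320), and sarcospan (Sspn) by 1.02 (SE 0.07, limma adjusted p = 0.00726), and the glycosyltransferase Pomgnt1 was also called lower. Utrophin (Utrn), the relative of dystrophin, was higher, at 10.58 and 10.51 in the Salv CKO pools against 9.64 and 9.42 in the control pools (1.01 ± 0.11, limma adjusted p = 0.0125). Dystrophin (Dmd) was not called (0.37 ± 0.19, limma adjusted p = 0.295).

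**Figure D4:**
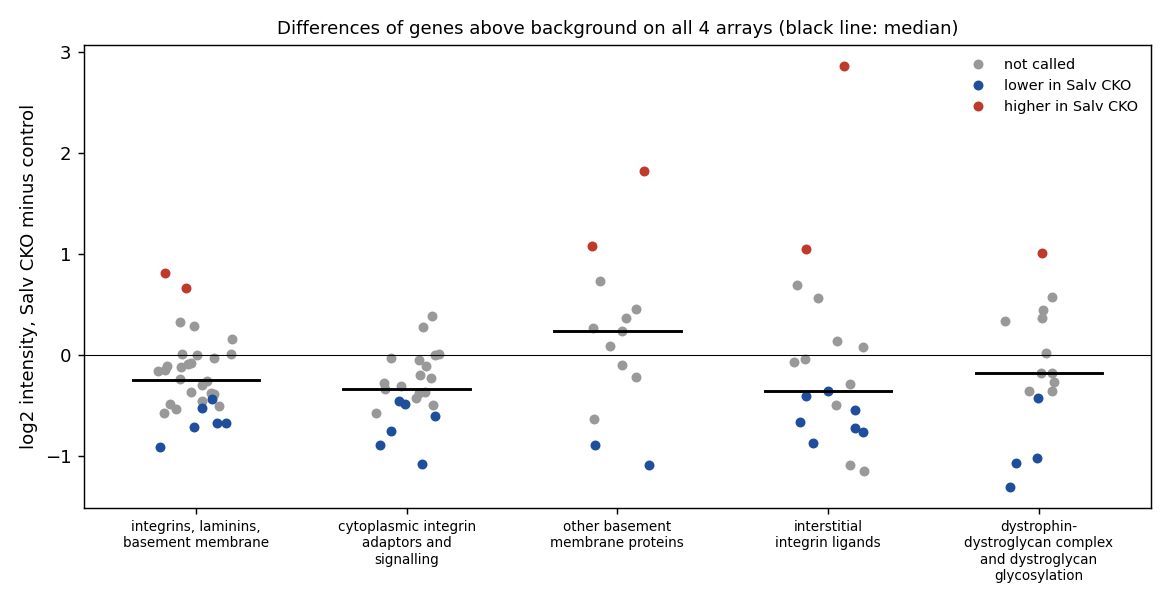
Differences in log2 intensity, Salv CKO minus control (vertical axis), of genes above background on all 4 arrays in the 40-gene set and in 4 related lists (blue, called lower; red, called higher; grey, not called; black line, median). Called genes are mostly lower in the 40-gene set, the adaptors and signalling proteins, the integrin ligands and the dystrophin complex. Among other basement membrane proteins, 2 are lower and 2 higher. The ligand list, labelled interstitial, also holds cell-surface ligands.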

How the data were processed

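The members and gene lists were chosen with earlier results of these data known. The deposited values are intensities on a linear scale. In the authors' deposited intensities 3.37 to 5.99% per array lay below 0, so they had been background-subtracted, and each array was a whole multiple (within 0.02) of 1 factor. The sources used here name no scanner, software or scaling target.

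Quantile normalisation of all 29922 probes used limma 3.58.1 (R 4.3.3), and values were floored at 1 and put on the log2 scale. The platform's gene table, of 2013, gave 1 symbol for 21020 probes, none had several, and 8902 are unnamed here. It names no genome build. Of the 40 members, 39 symbols are official in RefSeq's GRCm38.p6 table and Lamb1-1 is a synonym there. No chosen probe of a member was saturated (unscaled intensity of at least 65000). Members called, probes of opposite sign and the brightest member of each role are given array by array; related lists by counts, median and largest called differences.

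Genes were tested, two-sided, with limma (lmFit, eBayes with an intensity trend) over 16675 genes. The procedure was run on data simulated with the spread of limma's own fit, so that run cannot check the spread model. For 2 pools against 2, the smallest exact permutation p for a single gene is 0.333, so calls rest on the spread limma shares across genes. The number of arrays limits the precision. Alternatives changed the scaling, floor, filter, probe rule and spread model, and left out each array.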

Additional observations from a re-analysis of the deposited data

How the results depend on the processing

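The 6 genes called lower were 0 without any 1 of the 4 pools (range 0 to 0) and with no intensity trend, 1 with a floor of 16 and 2 with a floor of 64. The 2 called higher were 0 without any 1 pool (range 0 to 0), with values as deposited, floors of 16 or 64, the mean of probes or no trend, and 1 with the 75th percentile. Neither the fits without 1 pool nor the fit without the trend called any gene of all 16675. Without the trend, 8 of the 40 were lower and 3 higher at an unadjusted limma p under 0.05. Of all 16675 genes, 3578 passed that limit in either direction. With a floor of 16, 228 of all genes were called lower and 253 higher. With a floor of 64 these counts were 234 and 257, beside 951 and 821 in the main fit. Fits to 3 arrays assume that the lone pool varies like the other group. In the other settings 6 to 9 were called lower, and of the 6, all remained except Dag1 with the mean of probes. The genes called lower over all genes ranged from 666 to 3096 in these settings. With values as deposited, 8 members stood beside 3096 of 16675 genes, and with median centring 9 stood beside 1830. The 2 background filters tested 32 members among 12402 genes and 35 members among 13295 genes. Dag1, Itga2b, Itgb1, Lama4, Lamc1, Nid1 and Itga11 kept their sign in all 15 settings, with adjusted p of 0.00260 to 0.256. For Hspg2, whose adjusted p ranged from 0.00737 to 0.515, the mean of probes reversed the call (-0.54), since its other probes ran the other way. The pools share only a number: with the replicate block, 6 were called lower and 2 higher, and deviations of same-numbered pools correlated at 0.15.

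Uncalled genes changed sign as follows, where the cause was not tested. With values as deposited, where all genes lay at -0.44, Itga1 gave -0.23, Itga5 -0.31, Itgal -0.18, Itgb3 -0.17 and Lama1 -0.10. Itga5 gave -0.039 with median centring. Itgb4 gave 0.02 with the 75th percentile (0.018) and with a floor of 16 (0.020). With 1 pool left out, ranges were -0.17 to 0.18 for Itga1, -0.20 to 0.032 for Itga2, -0.13 to 0.072 for Itga3, -0.17 to 0.19 for Itga5, -0.56 to 0.054 for Itga9, -0.26 to 0.59 for Itgal, -0.32 to 0.0087 for Itgam, -1.27 to 0.16 for Itgax, -3.09 to 0.80 for Itgb2, -0.12 to 0.14 for Itgb3, -0.77 to 0.49 for Itgb4, -0.24 to 0.0091 for Itgb5, -0.044 to 0.62 for Lama1, -0.43 to 0.13 for Lama2, -0.35 to 0.19 for Lamc3 and -0.37 to 0.16 for Nid2. Genes at or below background (Itga4, Itga8, Itga10, Itgax, Itgb2, Itgb4, Itgb6, Lama3 on at least 1 array) have no reliable order there.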

Other observations

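Genes named after integrins or laminin that the 40-gene rule did not take were measured in 5 of 6 cases, and none was called with limma (3 at an unadjusted p under 0.05). Itgbl1, a secreted protein related to integrin beta subunits, read 6.55 and 6.58 in the Salv CKO pools and 5.96 and 5.21 in the control pools (0.98 ± 0.36, limma adjusted p = 0.165). Itfg3, a transmembrane protein with an integrin-like repeat, was near the threshold in the other direction, at 10.64 and 10.50 in Salv CKO hearts against 11.09 and 10.95 in control hearts (-0.45 ± 0.10, limma adjusted p = 0.0504).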
